A study of Mus musculus with 3 samples.

Results

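Cycling keratinocytes were taken from droplet-based single-cell RNA sequencing of mouse dorsal skin. A cell was a member when it held at least 1 unique molecular identifier (UMI, 1 captured mRNA molecule) of each of the cycling genes *Mki67*, *Top2a* and *Ube2c*, at least 10 UMIs of *Krt5* and *Krt14* together, and no UMI of *Krt71*, *Krt35*, *Shh* or *Ptprc*. Members were thus selected on the measured UMIs of these genes. The rule found 1509 members among 26847 cells that held at least 200 genes and at most 10% mitochondrial UMIs. Of these, 415 of 6582 were in the control library (Neg), 528 of 10433 in the alopecia areata library (AA) and 566 of 9832 in the library of treated AA mice (AA+Ab). The name given to these cells, cycling keratinocytes outside the hair shaft lineages, held only in part: many members also carried hair matrix and inner root sheath transcripts, so they are called below by their rule, as cycling *Krt5*/*Krt14* cells or members.

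Keratinocytes build the epidermis and the hair follicle, and they divide in the basal epidermal layer, in the outer root sheath and, fastest, in the hair matrix at the base of a growing follicle. KRT5 and KRT14 are the keratin pair of basal keratinocytes. MKI67 coats mitotic chromosomes, TOP2A untangles DNA and UBE2C marks mitotic proteins for destruction, while KRT71 belongs to the inner root sheath, KRT35 to the hair shaft and SHH to the matrix. Growing follicles normally hold little MHC class I, the molecules that show peptides to CD8+ T cells, and in alopecia areata T cells that make interferon gamma surround the follicle.

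The 3 libraries came from female C3H/HeN mice of 25 weeks. The Neg mice were labelled as a vehicle control and described as unaffected, the AA mice carried an alopecia areata model induced by transferred cells of skin-draining lymph nodes, and the AA+Ab mice were AA mice given an antibody that neutralizes the chemokine CXCL12. By the paper's account, the back skin of 7 to 8 mice was pooled for each group, digested with collagenase and cleared on a Percoll gradient. The paper describes the control and AA groups only, and the same preparation is assumed here for AA+Ab. An outcome of 1 mouse thus cannot be told apart from that of its pool. With 1 library per group there is no test between groups, and the intervals below cover counting error only (95%, Poisson for sums, Clopper-Pearson for shares, exact conditional for ratios). The comparisons of AA with Neg, AA+Ab with AA and AA+Ab with Neg share libraries and are not independent of each other.

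The libraries held 6965 to 10879 barcodes and 121289374 to 141998364 UMIs. Any pair of libraries shared 17 to 28 cell barcodes, and 1 to 3 members of a library carried a shared one. Members were deep cells, with a median of 26166 UMIs in Neg, 23053 in AA and 23585 in AA+Ab, against 10423 to 12015 in resting keratinocytes (the same *Krt5* and *Krt14* minimum and no UMI of the cycling genes) and 4028 to 4986 in T cells. Doublets were scored and kept, and they made up 10.6% of members in Neg, 14.2% in AA and 16.3% in AA+Ab. The doublet line was set beforehand from the barcode counts, at 5.57%, 8.70% and 8.41% of all kept cells, so the shares of members also follow that line.

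The genes that chose the members are described first. A member held a median of 12 UMIs of *Mki67* in Neg, 14 in AA and 13 in AA+Ab, and 19, 20 and 21 UMIs of *Top2a*. For *Ube2c* the medians were 13, 12 and 10.5. The medians of *Krt5* were 37, 51 and 43 UMIs and those of *Krt14* were 47, 99 and 73, in the same order. At the edges of the rule, 109 members in Neg, 114 in AA and 128 in AA+Ab held 10 to 19 UMIs of *Krt5* and *Krt14*, while 70, 54 and 95 cells that met every other condition held 5 to 9. Exactly 1 UMI of at least 1 cycling gene was the entry for 66, 85 and 97 members, and 227, 314 and 422 cells missed entry with UMIs of only 2 of the 3 cycling genes. A single UMI of *Krt71*, *Krt35* or *Shh* kept out 183, 143 and 184 cells, and 2 or more UMIs kept out 362, 280 and 356. T cells, which should lack keratins, held a mean of 2.19, 2.59 and 1.87 UMIs of *Krt5* and *Krt14*. They were defined with under 10 such UMIs, so a mean below the minimum of 10 was set in advance.

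Members made up 6.31% of kept cells in Neg (5.73 to 6.92), 5.06% in AA (4.65 to 5.50) and 5.76% in AA+Ab (5.30 to 6.24). Counted among keratinocytes alone the shares were 11.5%, 7.67% and 9.76%. Entry needs at least 1 UMI of 3 genes and the Neg cells were deeper, so cells were also thinned to a fixed number of UMIs. At 10000 UMIs per cell the share of kept cells was 6.11% in Neg (5.45 to 6.83), 6.0% in AA (5.42 to 6.62) and 6.46% in AA+Ab, leaving out 1774 shallower cells in Neg and 4214 in AA. At 5000 UMIs the shares were 3.34%, 3.0% and 3.50%, and at 2000 UMIs they were 1.35%, 1.48% and 1.61%. The lower share in AA was thus seen at full depth and, by less, at 10000 and 5000 UMIs but not at 2000, and the intervals of Neg and AA overlapped at each thinned depth.

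The members were not 1 population. Their UMIs of *Krt5* and *Krt14* fell into a low and a high range with few cells between them: 191 of 415 members in Neg (46.0%, 41.2 to 51.0), 210 of 528 in AA (39.8%, 35.6 to 44.1) and 237 of 566 in AA+Ab (41.9%, 37.8 to 46.1) held under 50. In Neg, 18.1% of the members held 10 to 14 UMIs, 1.69% held 75 to 99 and 12.0% held 200 to 299. The line at 50 UMIs splits the members below into keratin-low and keratin-high cells. The split uses genes of the rule and was decided after the data had been seen, so differences between the 2 kinds of member are given below as a description.

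**Figure D1:**
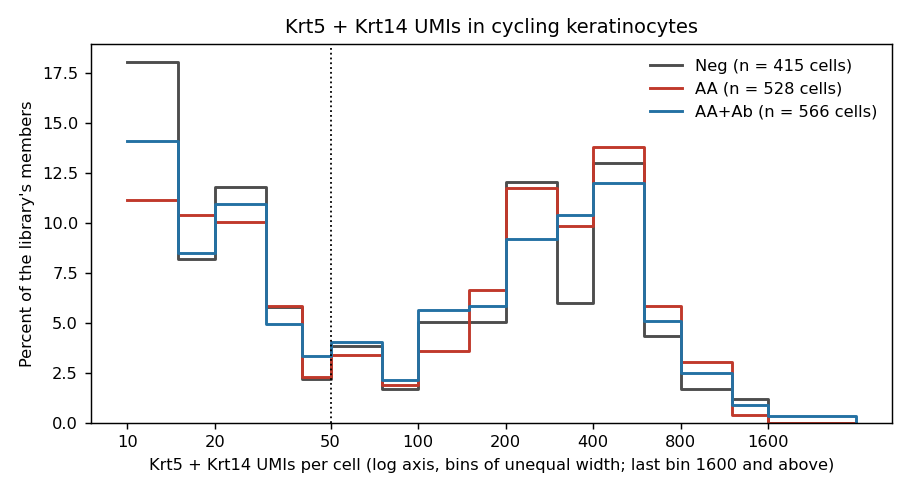
UMIs of *Krt5* and *Krt14* per member (x axis, log scale, bins of unequal width) against the percent of the library's members in each bin (y axis), 1 line per library with 415, 528 and 566 cells. Each library has a group of cells at 10 to 40 UMIs and another above 100, and the dotted line at 50 UMIs marks the split into keratin-low and keratin-high members.

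Transcripts that the rule did not use set the keratin-low cells apart. *Lef1*, a transcription factor of WNT signalling in the matrix, had a UMI in 54.7% of members in Neg, 43.4% in AA and 46.6% in AA+Ab, against 15.8%, 9.35% and 16.5% of T cells, which were far shallower and can express it. *Msx2*, another matrix regulator, was found in 57.1%, 42.6% and 48.9% of members and in 2.97%, 2.86% and 6.72% of T cells. *Krt25*, a keratin of the inner root sheath, was found in 60.5%, 43.6% and 51.6% of members and in 11.4%, 5.19% and 13.7% of T cells. Keratins of the finished shaft were nearly missing: *Krt31*, *Krt33a*, *Krt33b*, *Krt34* and *Krt36* each had a UMI in under 1% of members of every library. The epidermal regulator *Trp63* was present in 98.3% to 99.0% of members and in 9.87% to 12.9% of T cells. The data thus go against the name for the keratin-low cells. The rule bars the shaft keratin *Krt35*, so the near absence of the other shaft keratins is no support for the name.

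K-means clustering of the members, made without the cycling genes and the phase genes, gave 5 clusters that are left as numbers. *Krt5* and *Krt14* were not taken out, so the clusters are not independent of the keratin split. Clusters 2 and 3 held 703 of the 1509 members and 609 of the 638 keratin-low ones. Cluster 2, with 372 cells and a median of 18 UMIs of *Krt5* and *Krt14*, had *Ntn1*, *Tmtc1*, *Lgr5*, *Mgp*, *Cux1* and *Foxe1* among its leading genes. Its largest ratio to the other members was that of the muscle gene *Acta1*, at 340.5 CPM (the gene's UMIs per 1000000 UMIs of the same cells) against 14.5, and *Mylpf*, another muscle gene, stood high too. Of the *Acta1* UMIs of all Neg members, 3710 of 3973 lay in 1 cell. *Lgr5*, a WNT pathway receptor and a marker of follicle progenitors, was at 194 CPM in cluster 2 and at 5.22 to 76.9 in the other clusters. Cluster 3, with 331 cells and a median of 20 keratin UMIs, had *Aldh1a3*, *Wif1*, *Fabp4*, *Crabp1* and *Krt23* among its leading genes, and its *Lef1* level was 641 CPM against 221 in cluster 2 and 13.3 to 29.3 in clusters 1, 4 and 5. The inner root sheath keratin *Krt25* was at 336 and 522 CPM in clusters 2 and 3 and at 15.2 to 47.9 elsewhere.

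The other clusters carried *Krt14* at 6287 to 13917 CPM, against 498 and 779 in clusters 2 and 3. Cluster 1, the largest at 409 cells, had *Ndufa4l2*, *Zfp804b*, *Krt77*, *Krt1*, *Sox6* and *Krt10* among its leading genes, which include keratins of the differentiating epidermis. Cluster 4, with 199 cells, had *Fosl1*, *Serpinb2*, *Itgb6* and *Thbs1* among its leading genes, which include genes of matrix attachment and wound margins. Cluster 5, with 198 cells, had *Krt79*, *Defb6*, *Cst6*, *Sox9*, *Sostdc1* and *Krt17* among its leading genes, which include genes of the upper follicle and outer root sheath, and its *Sox9* level was 346 CPM against 6.54 to 40.6 in the others. Doublet scores were above the doublet line in 25.1% of cluster 4 and 21.2% of cluster 5, and in 8.33% to 12.1% of clusters 1 to 3. Every cluster held cells of every library, at least 44 from Neg, 77 from AA and 57 from AA+Ab.

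**Figure D2:**
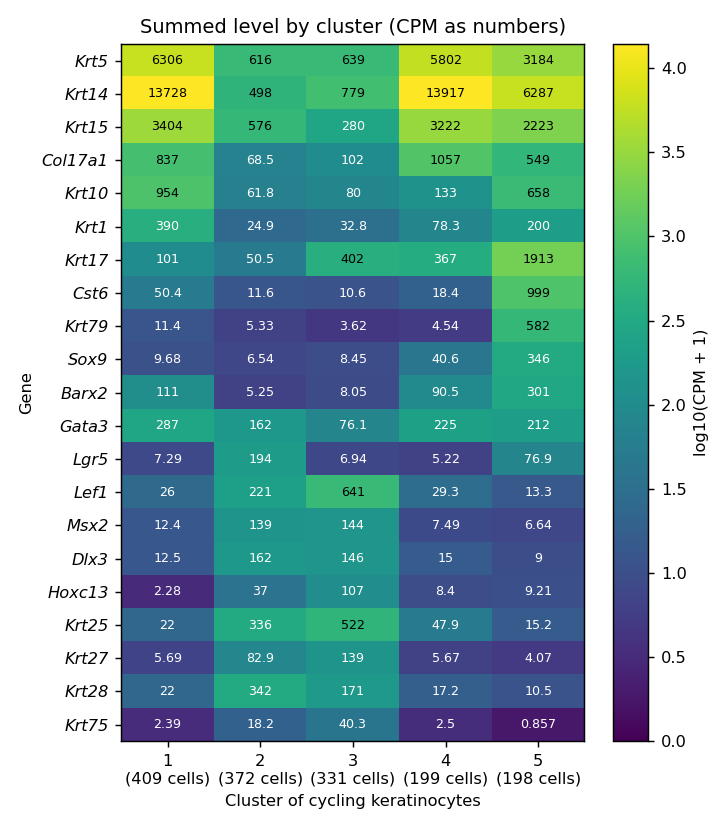
Summed level of 21 genes (rows, CPM printed in each field, colour as log10 of CPM + 1) in the 5 clusters of members (columns, number of cells below). *Krt5*, *Krt14*, *Krt15* and *Col17a1* are high in clusters 1, 4 and 5, while *Lef1*, *Msx2*, *Dlx3*, *Hoxc13*, *Krt25*, *Krt27* and *Krt28* are high in clusters 2 and 3.

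The cell cycle programme is described against resting keratinocytes, a contrast that the rule itself set. With 5 CPM added, 1018 of 13374 genes (7.61%) were at least 2-fold higher in the members of all 3 libraries and 362 (2.71%) at least 2-fold lower. Of the S phase list, genes of DNA replication, 40 of 43 were higher, and of the G2/M list, genes of mitosis, 56 of 57. *Cenpf*, a kinetochore protein, had the largest ratio, at 411 CPM in Neg, 533 in AA and 577 in AA+Ab against 4.44, 2.82 and 5.86 in resting cells. It was followed by the linker histone *Hist1h1b* (593 to 665 CPM against 6.62 to 10.4), the spindle protein *Nusap1* and the survivin gene *Birc5*. *Cdk1*, the kinase that drives mitosis, was at 276, 277 and 278 CPM in the members of Neg, AA and AA+Ab and at 5.15, 3.04 and 5.78 in resting cells. Of the cyclin and CDK list, 8 of 12 genes were higher.

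Among the genes lower in members, *Igfbp3*, which binds insulin-like growth factors, was at 38.3, 27.7 and 30.1 CPM against 170, 225 and 140 in resting cells. *Fbxo32*, an ubiquitin ligase gene, was at 26.2, 23.4 and 23.4 CPM against 120, 143 and 158. *Cdkn1a*, which encodes the cell cycle inhibitor p21, was at 154, 196 and 161 CPM against 378, 483 and 372, while the other inhibitor *Cdkn2d* was at 121, 144 and 144 CPM against 39.5, 70.3 and 76.6. Of the 12 basal genes, which include the hemidesmosome gene *Col17a1* (374 to 478 CPM against 978 to 1178), 7 were lower, and of the 14 suprabasal genes 8 were lower. Of the 9 matrix and shaft genes that could be compared, 6 were higher. The whole list was at 549, 625 and 589 CPM in members and 104, 97.4 and 107 in resting cells. In keratin-low members it was at 857, 1123 and 912 CPM, and in keratin-high ones at 278, 231 and 291. Under 50 keratin UMIs were held by 233 of 2119 resting cells in Neg, 787 of 4806 in AA and 568 of 3407 in AA+Ab, a smaller part than among members. The part of this mix in the matrix, basal and suprabasal differences was not tested.

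Members were rich in mitotic transcripts relative to replication transcripts. The UMIs of the S phase list were 0.279 times those of the G2/M list in Neg, 0.243 in AA and 0.270 in AA+Ab, on a rule that asks for 3 genes of G2 and mitosis. The keratin-low members held more S phase transcripts, with ratios of 0.354, 0.318 and 0.379 against 0.219, 0.194 and 0.187 in the keratin-high ones. Cycling cells left out only for *Krt71*, *Krt35* or *Shh*, called hair-lineage cycling cells below, had ratios of 0.314, 0.298 and 0.310, between the 2 kinds of member. Between libraries the differences were small: no gene of the S phase or G2/M list was at least 2-fold apart in any of the 3 comparisons, and the summed G2/M list was 11814 CPM in Neg, 13233 in AA and 13058 in AA+Ab.

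The promoters of the G2/M genes shared sequence that the rule did not use. Sequences of 300 bases, from 250 before to 50 after the annotated start, were taken from RefSeq for build GRCm38.p6. Many mitotic genes are held silent outside G2 by a complex that binds the cell cycle homology region (CHR, searched as TTTGAA or TTCGAA) and are driven by NF-Y through CCAAT boxes. Both motifs were searched on both strands. A window was found for 49 of the 57 G2/M genes, and 35 of them (71.43%) held a CHR, against 21.66% of 27025 genes with a window. A CCAAT box was held by 36 (73.47%), against 41.06% of all genes. Only 31 of the 43 S phase genes had a window, under 80%, so no share is given for that list. *Cenpf* and *Cdk1*, the genes with some of the largest ratios to resting cells, are printed with both motifs in capitals, CHR as TTTGAA and CCAAT or its complement ATTGG, *Cenpf* from chr1:189688037-189688336 on the minus strand and *Cdk1* from chr10:69352863-69353162 on the minus strand. A match is a description of these letters and no evidence of binding.
Cenpf: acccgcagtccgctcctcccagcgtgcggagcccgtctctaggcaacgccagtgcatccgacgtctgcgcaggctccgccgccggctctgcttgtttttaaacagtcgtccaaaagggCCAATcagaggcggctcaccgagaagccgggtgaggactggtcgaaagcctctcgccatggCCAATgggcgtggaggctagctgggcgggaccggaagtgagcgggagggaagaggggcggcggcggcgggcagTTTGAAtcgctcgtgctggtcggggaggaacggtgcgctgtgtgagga
Cdk1: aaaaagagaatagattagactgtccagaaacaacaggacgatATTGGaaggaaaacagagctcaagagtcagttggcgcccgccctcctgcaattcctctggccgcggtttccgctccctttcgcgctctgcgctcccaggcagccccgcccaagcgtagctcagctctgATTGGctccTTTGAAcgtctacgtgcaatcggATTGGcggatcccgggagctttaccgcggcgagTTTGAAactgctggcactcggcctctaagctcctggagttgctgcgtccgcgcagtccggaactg

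Against the hair-lineage cycling cells, of which there were 545 in Neg, 423 in AA and 540 in AA+Ab, members differed in few genes, again in a contrast set by the rule. Of 12325 genes, 16 (0.13%) were at least 2-fold higher in all 3 libraries and 7 (0.0568%) lower. The genes with the largest ratios were *Ifi27l2a*, an interferon-induced gene (37.0, 165 and 52.1 CPM against 9.61, 42.3 and 8.22), *Zfp804b*, the growth factor gene *Epgn* (73.3, 84.3 and 42.8 against 25.4, 21.1 and 13.6), *Sox6*, *Tppp3* and *Thy1*. Those with the smallest were *Selenbp1*, the WNT inhibitor *Wif1* (16.6, 32.1 and 30.0 CPM against 60.4, 147 and 127), *Gm49425*, *Cdh6* and *Scube1*. None of the 43 S phase genes and 1 of the 57 G2/M genes was among those higher.

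The interferon gamma list stood highest in the AA members. Summed over the list, which holds GTPases that attack intracellular microbes, chemokines and regulators, the level was 149 CPM in Neg, 337 in AA and 173 in AA+Ab, a log2 ratio of AA to Neg of 1.18 (1.10 to 1.26). A gene was counted as apart when its CPM + 5 differed at least 2-fold between libraries, among genes with at least 20 UMIs in 1 of them. By that count 28 of 12715 genes (0.22%) were higher in AA than in Neg and 48 (0.378%) were lower. Of the 18 interferon gamma genes tested, 3 were higher, *Gbp2*, *Gbp7* and *Iigp1*, and all 18 had a ratio above 1, with a median log2 ratio of 0.69 against -0.00 over all genes tested. Genes with under 20 UMIs in Neg entered through AA alone, so the UMI minimum set their ratio above 1 in advance. *Iigp1* was among these, with 11 UMIs in Neg, while *Gbp2* and *Gbp7* held 24 each. The count of ratios above 1 and the median are thus a description only.

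Among single genes, the GTPase gene *Iigp1* was at 0.902 CPM in Neg, 45.3 in AA and 3.4 in AA+Ab, a ratio of AA to Neg of 50.2 (27.8 to 101), and it had a UMI in 0.964%, 11.4% and 1.59% of members, against at most 1.56% of T cells. *Gbp2*, a guanylate-binding protein gene, was at 1.97, 12.9 and 2.77 CPM, 6.56 times higher in AA than in Neg (4.26 to 10.5). The genes of the list with the most UMIs included *Nlrc5*, the activator of MHC class I genes, at 37.1, 61.7 and 40.1 CPM, and *Irf1*, a transcription factor gene, at 27.5, 56.0 and 47.5. AA was the highest library for both, and the AA+Ab level of *Irf1* was closer to AA than to Neg.

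The difference rested on some of the cells. A median member held 3 UMIs of the interferon gamma list in Neg, 4 in AA and 2 in AA+Ab, while the highest held 53, 223 and 70. At least 20 UMIs were found in 10 members in Neg (2.41%), 46 in AA (8.71%) and 15 in AA+Ab (2.65%). The highest 10% of members held 39.6%, 53.5% and 42.7% of the list's UMIs. After thinning to 5000 UMIs, 48.4% of members in Neg, 59.9% in AA and 43.5% in AA+Ab still held a UMI of the list.

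Type I interferon genes followed the same order, at 47.8 CPM in Neg, 112 in AA and 48.2 in AA+Ab. *Bst2*, *Isg15* and *Xaf1* were higher among the 10 tested and all 10 had a ratio of AA to Neg above 1. *Isg15*, a ubiquitin-like protein gene, was at 6.07, 17.6 and 2.63 CPM, *Bst2*, a viral tether gene, at 13.4, 34.2 and 18.7, and *Xaf1* at 3.20, 11.7 and 4.71. *Isg15* and *Bst2* had a UMI in similar shares of T cells (10.4% to 14.0% and 21.0% to 41.6%) and of members (3.89% to 15.2% and 21.7% to 34.1%). T cells were far shallower and held the type I list at 252, 264 and 258 CPM, so they are no cells that lack these genes. The shares thus cannot tell expression in members from RNA of other cells. The MHC class II list, genes for antigen presentation to CD4+ T cells, was at 22.3 CPM in Neg, 89.1 in AA and 24.3 in AA+Ab, and 4 of its 6 genes were higher in AA than in Neg, *Cd74*, *H2-Aa*, *H2-Ab1* and *H2-Eb1*. *H2-Ab1* and *H2-Eb1*, with 12 and 19 UMIs in Neg, entered that comparison through AA alone, which set their direction. *Cd74*, the invariant chain, was at 4.84, 43.9 and 6.38 CPM, and 3 AA cells held 41.3% of its UMIs. The summed myeloid marker list was at 9.10, 3.28 and 1.80 CPM, with *Adgre1* at 0 in AA. In Neg, 75 of its 111 UMIs lay in 1 cell, and without that cell the Neg level was 2.96 CPM, so that AA was the highest library, as in the MHC class II list. In keratin-high members the myeloid list was at 2.62, 3.50 and 1.46 CPM. The part of myeloid transcripts in the MHC class II result was not tested.

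The sequences of *Gbp2* and *Isg15*, the interferon-induced genes with a promoter window and large ratios, are printed with the interferon-stimulated response element in capitals (ISRE, searched as 2 repeats of TTTC with 2 bases between them, or the reverse complement, overlapping matches joined). *Gbp2* lies at chr3:142620413-142620712 on the plus strand and *Isg15* at chr4:156200769-156201068 on the minus strand of GRCm38.p6. The gamma-activated site (GAS, searched as TTC and GAA with 3 bases between them) was found in neither window. Of the interferon gamma genes 15 of 25 and of the type I genes 14 of 19 had a window, under 80%, so no shares are given for them. Of the MHC class I list 15 of 16 had a window and 4 (26.67%) held an ISRE, against 3.993% of all genes with a window.
Gbp2: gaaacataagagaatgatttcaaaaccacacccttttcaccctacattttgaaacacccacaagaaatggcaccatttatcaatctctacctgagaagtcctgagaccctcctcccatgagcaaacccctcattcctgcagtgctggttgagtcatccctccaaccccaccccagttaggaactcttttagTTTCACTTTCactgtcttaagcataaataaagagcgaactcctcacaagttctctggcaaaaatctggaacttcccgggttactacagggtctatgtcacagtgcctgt
Isg15: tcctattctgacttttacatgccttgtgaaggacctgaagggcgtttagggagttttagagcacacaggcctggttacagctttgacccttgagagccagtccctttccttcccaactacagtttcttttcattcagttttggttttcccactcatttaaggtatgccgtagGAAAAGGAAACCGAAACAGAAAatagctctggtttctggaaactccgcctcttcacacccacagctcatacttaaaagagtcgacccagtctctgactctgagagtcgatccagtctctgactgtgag

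**Figure D3:**
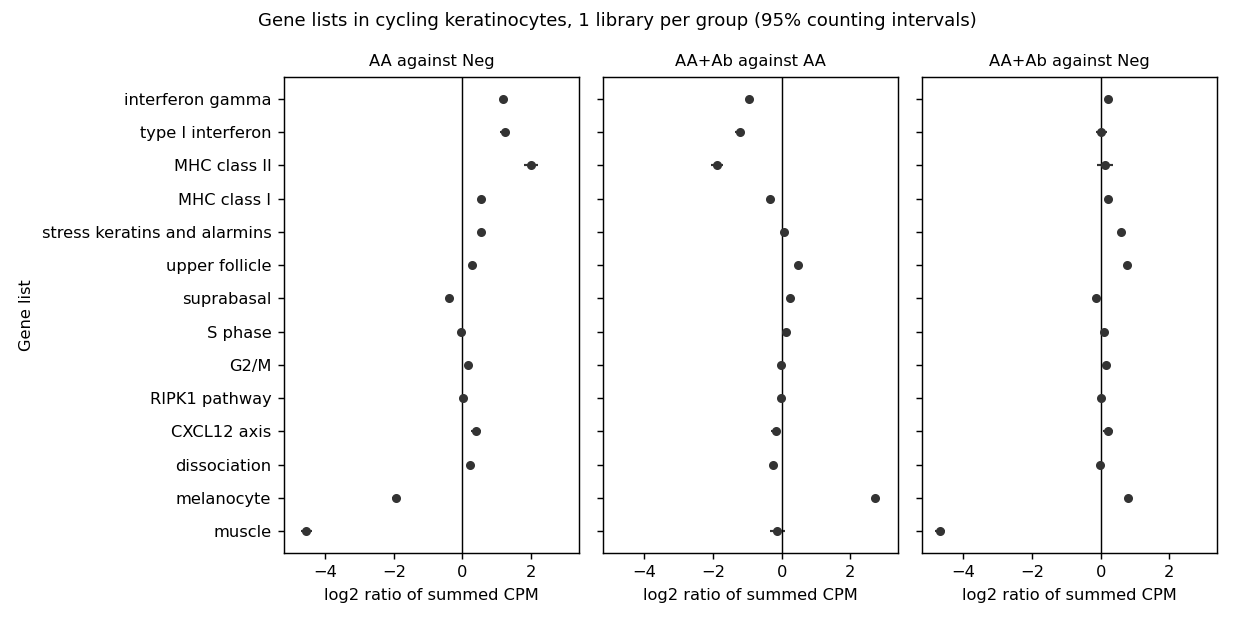
Log2 ratio of the summed CPM of 14 gene lists (y axis) between libraries for all members (x axis), 1 panel per comparison, points with 95% counting intervals and 1 library per group. The interferon gamma, type I interferon and MHC class II lists lie right of 0 for AA against Neg and left of 0 for AA+Ab against AA, while the S phase, G2/M and RIPK1 pathway lists lie near 0 throughout.

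MHC class I was highest in AA among all members and in both keratin ranges. Over all members the list was at 2513 CPM in Neg, 3657 in AA and 2907 in AA+Ab, a log2 ratio of AA to Neg of 0.54 (0.52 to 0.56) that fell to 0.24 with further hair keratins excluded and to 0.36 after thinning to 5000 UMIs, and none of its 16 genes was 2-fold apart although all 16 had a ratio above 1. In the keratin-low members the level was far lower, at 325 CPM in Neg (310 to 340), 747 in AA (725 to 770) and 374 in AA+Ab (359 to 388), and the log2 ratio, AA over Neg, was 1.2 (1.12 to 1.28). In the keratin-high members it was 4442, 5963 and 5239 CPM, with a log2 ratio of 0.42 (0.40 to 0.45). In clusters 2 and 3, made with *Krt5* and *Krt14* not taken out, the level was 445, 773 and 492 CPM. The log2 ratio was 0.79 (0.73 to 0.86) there, against 0.34 (0.31 to 0.36) in clusters 1, 4 and 5. Counting error is not the error between mice.

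Of the 14 class I genes tested in keratin-low members, 6 were higher in AA than in Neg, where 0.174% of 10916 genes were higher and 0.147% lower. *H2-K1*, a class I heavy chain gene, was at 83.3 CPM in Neg, 210 in AA and 92.1 in AA+Ab, and *B2m*, the light chain, was at 74.0, 196 and 105. *H2-D1*, the other classical heavy chain, was at 53.9, 161 and 70.3 CPM. The immunoproteasome genes *Psmb8* and *Psmb9* were at 3.15, 18.7 and 7.08 CPM and at 5.95, 28.3 and 9.54, and the peptide transporter gene *Tap1* at 4.02, 13.8 and 5.93. AA was the highest library for all 6. The non-classical genes were lower and closer together, *H2-T23* at 5.77, 10.8 and 5.49 CPM and *H2-Q7* at 4.37, 3.18 and 3.04. The class I heavy chain genes are near copies of each other, so how their reads were split is uncertain. In the keratin-high members 0 of 16 class I genes were 2-fold apart, where 0.487% of 11488 genes were higher in AA and 0.749% lower. *H2-K1* was at 1296, 1771 and 1550 CPM there.

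Much of the class I difference in keratin-low members lay in the upper range of the AA cells. The mean cell held 9.72 UMIs of the list in Neg, 20.1 in AA and 10.9 in AA+Ab, the median cell 8, 12 and 7, and the 90th percentile was 17, 46.8 and 18. Without the 3 highest cells of each library the list was at 288, 680 and 332 CPM, and after thinning to 5000 UMIs the mean per cell was 1.80, 4.35 and 2.49 UMIs. Outside clusters 2 and 3 lay 4 of the keratin-low cells in Neg, 13 in AA and 12 in AA+Ab, where the list was at 4054, 4539 and 4463 CPM. Without them, an alternative chosen after seeing the data, it was at 292, 633 and 293 CPM, a log2 ratio of AA to Neg of 1.12 (1.03 to 1.2) with 5 of 14 genes higher, where 0.129% of 10819 genes were higher and 0.148% lower. With all cells of clusters 2 and 3 in place of the keratin line 1 of 14 genes was higher, *Psmb9*, where 0.0971% of 11327 genes were higher and 0.353% lower. Keratin-low hair-lineage cycling cells, which are no members, had 357, 613 and 322 CPM. Their keratin-high counterparts had 2499, 3227 and 2569 CPM, and all hair-lineage cycling cells together 1373, 1259 and 1064, so there AA was the highest library within each range and not in the sum.

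The interferon gamma list was also highest in AA in both keratin ranges. Its log2 ratio of AA to Neg was 0.56 (0.41 to 0.70) in keratin-low members, at 116, 171 and 90.4 CPM in Neg, AA and AA+Ab, and 1.40 (1.30 to 1.49) in keratin-high members, at 178, 468 and 250 CPM. In keratin-high members 11 of 18 genes were higher in AA, among them *Iigp1* (1.70, 74.7 and 6.52 CPM), *Gbp2* (3.24, 22.1 and 5.19), the chemokine gene *Cxcl10* (7.71, 24.2 and 8.12) and the checkpoint ligand gene *Cd274* (2.0, 9.24 and 1.6). In keratin-low members 2 of 7 were higher, *Iigp1*, at 0 in Neg and AA+Ab and 8.13 CPM in AA, and *Nlrc5*, at 1.75, 11.7 and 3.47 CPM. Both entered through AA alone, with 0 and 10 UMIs in Neg, so the minimum of 20 UMIs set their direction. Of the 11 genes in keratin-high members the same held for *Iigp1*, *Ifi47*, *Zbp1* and *Cd274*, with 11, 1, 6 and 13 UMIs in Neg.

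**Figure D4:**
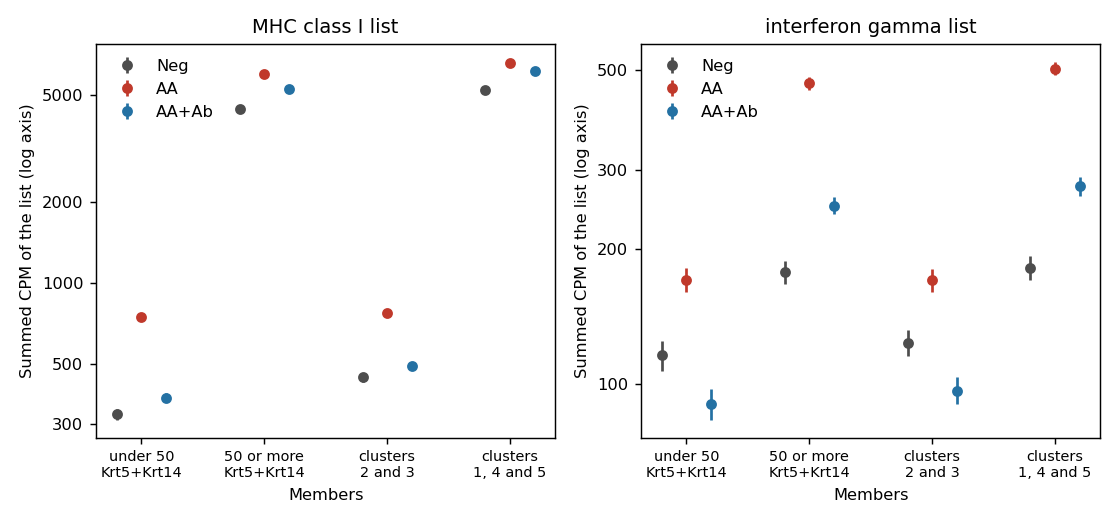
Summed CPM (y axis, log scale) of the MHC class I list (left) and the interferon gamma list (right) in keratin-low and keratin-high members and in clusters 2 and 3 or 1, 4 and 5 (x axis), 1 point per library with its 95% counting interval. AA is the highest point in each group of members, and the class I level of keratin-low members, 325 to 747 CPM, lies far below that of keratin-high members, 4442 to 5963 CPM.

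Over all members, the interferon gamma and type I interferon lists in AA+Ab lay below AA and closer to Neg, but not in cluster 4. The log2 ratio of AA+Ab to AA was -0.96 (-1.03 to -0.88) for the interferon gamma list, -1.22 (-1.35 to -1.08) for type I interferon, -1.88 (-2.05 to -1.70) for MHC class II and -0.33 (-0.35 to -0.31) for MHC class I. Against Neg they were 0.22 (0.13 to 0.31), 0.01 (-0.15 to 0.17), 0.12 (-0.11 to 0.36) and 0.21 (0.19 to 0.23). MHC class II stood closer to AA with 2 of 3 cycling genes required, at -0.88 to AA and 1.06 (0.90 to 1.22) to Neg, and so did MHC class I with further hair keratins excluded, at -0.063 and 0.17. Between AA+Ab and AA, 26 of 12606 genes (0.206%) were higher in AA+Ab and 34 (0.27%) lower, and 3 of 18 interferon gamma genes were lower, *Gbp2*, *Igtp* and *Iigp1*. Between AA+Ab and Neg, 9 of 12739 genes (0.0706%) were higher and 39 (0.306%) lower, with 0 of 12 interferon gamma genes apart. Resting keratinocytes showed the same order, with interferon gamma log2 ratios of 1.13 for AA to Neg and -0.70 for AA+Ab to AA. Among members, cluster 4 went the other way. Its interferon gamma list was at 183 CPM in Neg, 344 in AA (319 to 370) and 386 in AA+Ab (350 to 424). Its type I interferon list was at 58.7, 102 and 106 CPM in the same order. The AA and AA+Ab intervals overlapped for both lists. Cluster 4 held 18.6% of members in AA and 10.1% in AA+Ab. In each of the other clusters AA was the highest library for both lists.

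Within the strata, the class I list of keratin-low members had a log2 ratio of AA+Ab to AA of -1.0 (-1.07 to -0.93), and 3 of 14 genes were lower, *H2-D1*, *H2-K1* and *Psmb9*, where 0.218% of 11015 genes were higher and 0.236% lower. In keratin-high members it was -0.19 (-0.21 to -0.17) with 0 of 16 genes apart, where 0.254% of 11403 genes were higher and 0.737% lower. There, 6 of 18 interferon gamma genes were lower, *Cd274*, *Cxcl10*, *Gbp2*, *Igtp*, *Iigp1* and *Zbp1*.

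Many of the genes with the largest ratios between libraries were of 2 kinds. Interferon and antigen presentation genes led AA over Neg, with *Cd74*, *Ifi27l2a* and *Gbp2*, beside *Cstdc5*, *Dclk1* and the chemokine gene *Ccl2*. *Ifi27l2a* had a UMI in 211 of the 528 AA members, and 3 cells held 17.4% of its UMIs in AA. The 3 highest AA cells held 41.3% of the *Cd74* UMIs, 37.6% of those of *Gbp2*, 73.1% of those of *Cstdc5* and 69.8% of those of *Ccl2*. Among the genes lowest in AA+Ab against AA were *Iigp1*, *Cd74*, *Ifi27l2a*, *Isg15* and the heat shock gene *Hsph1* (122, 182 and 59.0 CPM in Neg, AA and AA+Ab). *Hsph1* belongs to a list of genes that react to tissue digestion, which was at 10479, 12319 and 10312 CPM, and its part in the result was not tested.

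The other kind rested largely on a few members with many UMIs of muscle or pigment genes, and what these cells are was not tested. The 6 genes lowest in AA against Neg were muscle genes, *Acta1*, *Tnnt3*, *Car3*, *Tnni2*, *Tnnc2* and *Ckm*, and 1 Neg cell held 7063 of the 7548 UMIs of the muscle list (93.6%). The list was at 619 CPM in Neg with that cell and at 40.0 without it, against 26.5 in AA. The genes highest in AA+Ab against AA were the pigment genes *Pmel*, *Tyrp1*, *Dct* and *Mlana*, the prostaglandin synthase gene *Ptgds*, and the upper follicle gene *Cst6*. For the melanocyte list 4 AA+Ab cells held 75.9% of the UMIs and 11 Neg cells held 58.3%, and without them the levels were 102 CPM in Neg, 60.5 in AA and 98.0 in AA+Ab. For *Cst6*, a protease inhibitor gene, 1 AA+Ab cell held 2669 of 4214 UMIs. *Hoxd8*, also among the genes with the largest ratios, was of neither kind. It had 66 UMIs in Neg, 88 in AA and 271 in AA+Ab, where 137 members held a UMI and the 3 highest held 6.64%. *Sprr1a* had 81, 181 and 527 UMIs and *Stfa3* 37, 155 and 178, with 68.9% and 66.3% of those in AA+Ab in 3 cells. With the cells of at least 20 muscle or melanocyte UMIs left out, the genes lower in AA than in Neg numbered 12 in place of 48, those higher in AA+Ab than in AA 10 in place of 26, and those lower in AA+Ab than in Neg 16 in place of 39.

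**Figure D5:**
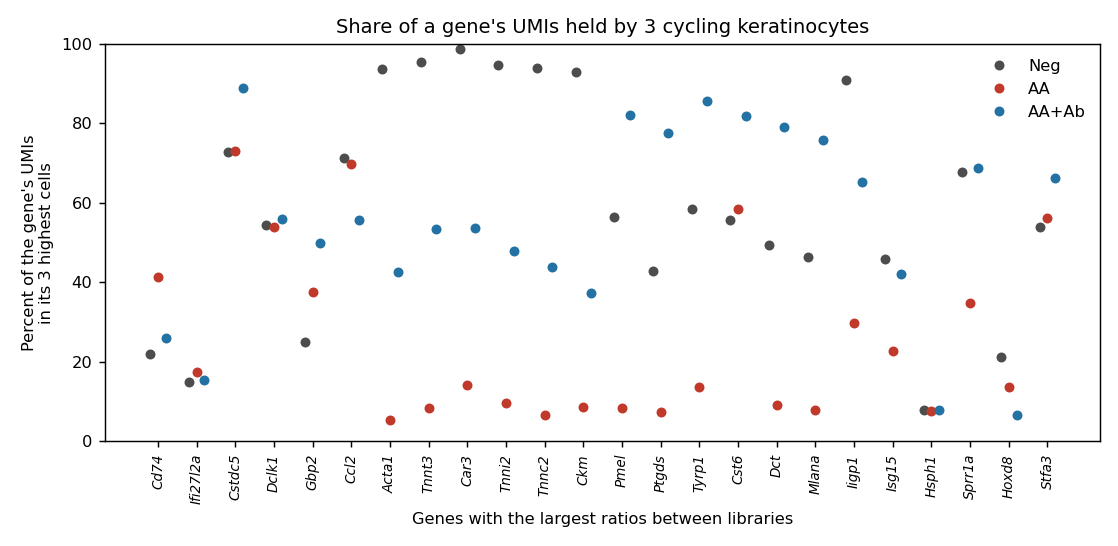
Percent of a gene's UMIs in members that its 3 highest cells held (y axis, 1 point per library) for genes with the largest ratios between libraries (x axis). The muscle gene *Acta1* stands at 93.8% in Neg and the pigment gene *Pmel* at 82.1% in AA+Ab, each against under 10% in AA.

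Markers of T cells and endothelial cells were present at low levels, and the fibroblast list stood higher. The T cell list was at 27.0 CPM in Neg, 17.5 in AA and 22.4 in AA+Ab, mostly *Trbc2*, with 308 of 415, 404 of 528 and 423 of 566 members at 0 for the whole list and 1 of its 8 genes at 0 in every library. In T cells themselves the T cell list was at 8633 CPM in Neg, 5198 in AA and 7784 in AA+Ab. The part of T cell transcripts in the interferon results was not tested. The endothelial list was at 13.5, 9.46 and 12.4 CPM. The fibroblast list was at 410, 435 and 627 CPM, and nearly all of it was *Dcn*, at 390, 428 and 624 CPM, while *Col1a1*, the main collagen of fibroblasts, was at 4.59, 2.03 and 0.347. In resting keratinocytes the fibroblast list was at 36.1, 40.3 and 37.2 CPM, and in hair-lineage cycling cells at 592, 926 and 996. *Dcn*, a matrix proteoglycan gene, was concentrated in clusters 2 and 3, where the list stood at 976 and 756 CPM against 28.6 to 68.1 in the others.

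For keratin and barrier lists the order of the libraries depended on few cells. The stress keratin and alarmin list was at 395 CPM in Neg, 570 in AA and 598 in AA+Ab. *Krt6a* was the only one of 7 genes tested that was higher in AA than in Neg, at 7.62, 20.9 and 13.7 CPM, and *Krt16* was at 24.3, 44.4 and 35.1. The suprabasal list was at 2413, 1855 and 2209 CPM, and *Krt10*, the main keratin of differentiating epidermis, at 518, 270 and 261. The upper follicle list was at 626, 762 and 1058 CPM, where *Cst6* and *Krt79* were higher in AA+Ab than in AA, with 81.9% and 57.5% of their AA+Ab UMIs in 3 cells. The order of AA and AA+Ab in the stress and upper follicle lists, and that of Neg and AA+Ab in the suprabasal list, turned when the 3 cells with the most UMIs of a list were left out, and that of Neg and AA in the upper follicle list turned with 2 of 3 cycling genes required.

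The RIPK1 pathway, which leads from the TNF receptor to cell survival or death, was level across libraries, at 269 CPM in Neg, 273 in AA and 268 in AA+Ab with 0 genes apart in any comparison. *Ripk1* was at 19.2, 24.3 and 26.9 CPM, a log2 ratio of AA to Neg of 0.34 (0.09 to 0.59). It was 0.026 after thinning to 5000 UMIs per cell, with an interval of -0.72 to 0.79 that holds the unthinned value, and 0.30 to 0.43 under the other alternatives. *Ripk3* was at 8.36, 13.5 and 10.4 CPM, with a ratio of AA to Neg of 1.62 (1.26 to 2.09), and *Mlkl*, the executor of necroptosis, at 1.80, 2.81 and 2.01. Of the CXCL12 axis, the scavenger receptor gene *Ackr3* was at 43.6, 51.7 and 51.3 CPM and had a UMI in 42.6% to 44.7% of members, against 0.990% to 2.52% of T cells. *Cxcl12* itself was at 8.03, 16.5 and 9.63 CPM and the signalling receptor gene *Cxcr4* at 2.29, 2.34 and 1.52. The growth signal list was lowest in AA+Ab, at 1154 CPM in Neg, 1264 in AA and 975 in AA+Ab, a log2 ratio of AA+Ab to AA of -0.375 (-0.41 to -0.34), and that ratio was -0.52 in resting keratinocytes. *Egfr*, the receptor of epidermal growth factor, was at 320, 357 and 247 CPM, *Fgfr2* at 302, 285 and 265, and 0 of 12 genes were 2-fold apart. The CDK inhibitor list was at 409, 482 and 445 CPM and the p53 target list at 534, 597 and 548, each with 0 genes apart.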

How the data were processed

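Skin cells of 3 libraries (Neg, AA, AA+Ab), 1 per group, were profiled with the Chromium Next GEM 3′ v3.1 chemistry, and Cell Ranger 7.2.0 was used by the authors for alignment (mm10), cell calling and UMI counting. Values in the deposited matrices are UMI counts as Cell Ranger gave them, not normalized. The other deposited files of each library list gene and barcode names only. Cells were kept here at 200 genes or more and at most 10% mitochondrial UMIs. Doublets were scored against 2 simulated doublets per cell in 20 principal components, marked at 0.8% per 1000 barcodes, and kept, and leaving them out was an alternative. UMIs were summed over the members of a library and scaled to 1000000 (CPM). Ratios of genes had 5 CPM added, and a gene was tested with at least 20 UMIs in 1 of the sums, compared at a fold of 2. No p-value or SE was computed. Members were clustered by k-means into 5 groups on 15 principal components of 1500 variable genes. Cells were thinned at random to 2000, 5000 or 10000 UMIs, leaving out shallower ones. Promoter sequences came from RefSeq (GRCm38.p6). The step that counts genes was tested on simulated data with known changes. Python 3.11.15, numpy 2.4.6, scipy 1.17.1, pandas 2.3.3, scikit-learn 1.9.0 and matplotlib 3.10.9 were used.

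The named genes were those of the rule, the 3 genes of each list with the most UMIs, *Ripk1*, *Ripk3* and *Mlkl*, and the 6 largest and 6 smallest ratios between libraries or the 8 of each against other cells, where each sum had 20 UMIs or more. Others, such as single class I genes in keratin-low members, were chosen after their values were seen. The members and lists were chosen with earlier results of these data known. *Ctgf*, *Krt85*, *Cxcl11*, *Mx1* and *Mx2* were not analysed here, and 3 genes that the rule or the clusters name are not reported here. Alternatives changed the cycling genes required, the keratin minimum, the excluded keratins, the mitochondrial limit, the doublets, the depth, the pseudocount, the UMI minimum and the averaging over cells.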

Additional observations from a re-analysis of the deposited data

How the results depend on the processing

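With 1 library per group nothing here measures the spread between mice. No paired analysis was possible because each group has 1 library, and for the same reason no replicate was left out. Depth limits the small lists most, such as MHC class II and the CXCL12 axis. Settings that alter who is a member also alter the mix of keratin-low and keratin-high cells, and the cause of the shifts was not tested.

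For the share of kept cells in Neg, AA and AA+Ab (6.31%, 5.06% and 5.76%), asking for 2 UMIs of each cycling gene gave 5.30%, 4.25% and 4.77%, 2 of 3 cycling genes 9.75%, 8.07% and 10.0%, and at least 50 UMIs of *Krt5* and *Krt14* 3.4%, 3.05% and 3.35%. Excluding further hair keratins gave 1.40%, 1.96% and 1.66%, which turned the order of the libraries, and leaving out doublets gave 5.26% in AA+Ab. Thinning to 2000 UMIs gave 1.35%, 1.48% and 1.61%, to 5000 3.34%, 3.0% and 3.50%, and to 10000 6.0% in AA and 6.46% in AA+Ab.

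The log2 ratio of S phase to G2/M UMIs in Neg, AA and AA+Ab was -1.99, -2.22 and -2.09 with 2 UMIs of each cycling gene, -1.57, -1.74 and -1.57 with 2 of 3 cycling genes, -2.19, -2.37 and -2.42 with at least 50 keratin UMIs, -2.59, -2.46 and -2.72 with further hair keratins excluded, and -2.50, -2.75 and -2.78 after thinning to 5000 UMIs. It was -1.87, -2.08 and -1.90 without doublets, and -1.86 in Neg and -2.06 in AA at a mitochondrial limit of 5%.

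For the interferon gamma list, the log2 ratio of AA to Neg (1.18) was 1.39 with 2 of 3 cycling genes, 1.40 with at least 50 keratin UMIs, 1.71 with further hair keratins excluded and 1.46 after thinning to 5000 UMIs. That of AA+Ab to AA (-0.96) was -1.08 with 2 of 3 cycling genes, -1.05 with further hair keratins excluded, -0.86 as a mean of CPM over cells, and -0.88 without the 3 cells of most list UMIs, an alternative chosen after seeing the data. That of AA+Ab to Neg (0.22) was 0.31 with 2 of 3 cycling genes, 0.49 with at least 50 keratin UMIs, 0.66 with further hair keratins excluded and 0.44 after thinning. No alternative turned these 3 ratios. *Ripk1*, at 0.34 for AA to Neg, was at 0.026 (-0.72 to 0.79) after thinning to 5000 UMIs and at 0.30 to 0.43 otherwise. For MHC class I, over all alternatives, AA to Neg (0.54) was 0.24 to 0.55, AA+Ab to AA (-0.33) was -0.36 to -0.063 and AA+Ab to Neg (0.21) was 0.13 to 0.29. For MHC class II the ranges were 1.57 to 3.12 (2.0), -2.60 to -0.88 (-1.88) and -0.056 to 1.06 (0.12).

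The numbers of genes at least 2-fold higher and lower were 28 and 48 for AA against Neg, 26 and 34 for AA+Ab against AA, and 9 and 39 for AA+Ab against Neg. A pseudocount of 1 gave 113 and 208, 89 and 169, and 49 and 215. Excluding further hair keratins gave 124 higher, 42 and 132, and 58 and 78. At least 50 keratin UMIs gave 56 and 86, then 84 lower, then 83 lower, and thinning gave 72 higher, 67 lower and 41 higher, in that order. With 2 of 3 cycling genes, 30 were lower for AA against Neg. For AA+Ab against Neg, 14 were higher without doublets and 18 at a mitochondrial limit of 5%. Leaving out cells with muscle or melanocyte UMIs, chosen after seeing the data, gave 12 lower, 10 higher and 16 lower. The gene minimum of 10 or 50 UMIs left these counts within 1.5 times.

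Directions that turned, as log2 ratios, were these. For the stress keratin and alarmin list, AA+Ab to AA was -0.18 with 2 UMIs of each cycling gene, -0.29 without the 3 highest cells, -0.30 as a mean over cells and -0.59 after thinning. For the upper follicle list, AA to Neg was -0.45 with 2 of 3 cycling genes, and AA+Ab to AA was -0.24 without the 3 highest cells, -0.14 as a mean over cells and -0.12 after thinning. For the suprabasal list, AA+Ab to Neg was 0.060 without the 3 highest cells and 0.15 as a mean over cells, and AA+Ab to AA was -0.065 with further hair keratins excluded. For AA+Ab to Neg, ratios whose intervals held 0, MHC class II was -0.056 without doublets, and type I interferon was -0.048 with 2 UMIs of each cycling gene, -0.028 without doublets and -0.0038 at a mitochondrial limit of 5%. For the melanocyte list, AA+Ab to Neg was -0.33 without the 3 highest cells and -0.065 without muscle and melanocyte cells, and after thinning AA to Neg was 0.48 and AA+Ab to AA was -0.0033.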
